A study of Mus musculus with 34 samples.

Results

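Of the 16162 binding regions (peaks) of p65 listed for Bmal1 knockout β-cells given the cytokine IL-1β, 2926 had no wild-type p65 peak close by, neither in cells with IL-1β nor in control cells. Close by means a gap of at most 500 bp between the edges of 2 peaks. These knockout-only peaks made up 18.1% of the knockout list, and the other 13236 peaks served as the set to compare them with. The wild-type p65 lists held 31389 peaks with IL-1β and 3157 peaks in control cells. The members were thus chosen by the position of p65 peaks in 3 peak lists, and absence means that no peak was listed, not that no protein was bound.

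The study used ChIP-seq, which sequences the DNA recovered with an antibody to a chosen protein, in Beta-TC6, a mouse insulin-secreting tumour line. Of its 34 samples, 28 were immunoprecipitated and 6 were inputs, which are chromatin sequenced without immunoprecipitation. The p65 and PDX1 samples came from wild-type and Bmal1-/- cells with IL-1β or as control, with 3 samples in each of those groups. The SIN3A samples came from wild-type cells that received control siRNA or siRNA against Pdx1, with 2 samples in each group. Before sampling, every culture was treated with forskolin at 10 µM for 1 h to synchronise its cells, per the labels. The labels give no dose or time for IL-1β, state none for the SIN3A samples, and do not say whether the knockout line was 1 clone or whether samples of a group were separate cultures. They name a p65 antibody for the IL-1β samples whose titles say PDX1, and the titles were followed. The peak lists hold no expression values, so the loss of BMAL1 could not be checked in them.

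p65 (RELA) is the main transactivating subunit of NF-κB. In resting cells IκB proteins hold it in the cytoplasm, and IL-1β, through its receptor and the IκB kinases, releases it to the nucleus, where it binds κB sites at inflammatory genes. BMAL1 pairs with CLOCK to drive the circadian clock through E-box sites. PDX1 is a homeodomain factor on which the identity of β-cells depends. SIN3A is the scaffold of a corepressor complex that carries histone deacetylases and is found mainly at gene promoters.

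Some of the knockout-only peaks lay on promoters, and 6 of those promoters are shown because they hold the kinds of sequence discussed below. Each line gives the bases that lay under the peak and within the 250 bases before the annotated start, 5′ to 3′ on the strand of the gene, from RefSeq for GRCm38.p6, which is mm10. Capitals mark κB-type letters (GGG, any 3 bases, then TTCC), matches to the degenerate κB consensus, E-box letters (CACGTG) and the core letters of ETS-family sites (CCGGAA), found on either strand. The sequences were chosen after their letters had been read, from 152 windows whose bases under the peak lay outside every gene body.
Tpt1, chr14:75845027-75845255, plus strand: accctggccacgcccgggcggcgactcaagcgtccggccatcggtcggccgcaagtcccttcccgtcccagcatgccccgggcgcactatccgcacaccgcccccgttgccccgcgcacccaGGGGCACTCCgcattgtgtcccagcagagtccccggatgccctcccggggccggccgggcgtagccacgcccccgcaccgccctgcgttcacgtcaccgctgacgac
Polr2e, chr10:80039660-80039881, minus strand: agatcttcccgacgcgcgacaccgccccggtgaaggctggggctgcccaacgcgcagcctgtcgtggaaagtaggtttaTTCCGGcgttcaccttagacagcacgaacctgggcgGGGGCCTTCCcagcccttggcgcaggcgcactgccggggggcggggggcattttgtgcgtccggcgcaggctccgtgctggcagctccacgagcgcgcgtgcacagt
Got1, chr19:43524768-43524855, minus strand: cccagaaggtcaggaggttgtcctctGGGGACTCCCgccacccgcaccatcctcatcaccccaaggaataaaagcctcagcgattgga
Ubxn1, chr19:8871356-8871547, plus strand: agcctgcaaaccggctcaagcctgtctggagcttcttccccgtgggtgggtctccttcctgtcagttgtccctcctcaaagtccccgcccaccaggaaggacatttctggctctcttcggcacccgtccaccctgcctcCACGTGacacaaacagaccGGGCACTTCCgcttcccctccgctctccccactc
Sde2, chr1:180850916-180851146, plus strand: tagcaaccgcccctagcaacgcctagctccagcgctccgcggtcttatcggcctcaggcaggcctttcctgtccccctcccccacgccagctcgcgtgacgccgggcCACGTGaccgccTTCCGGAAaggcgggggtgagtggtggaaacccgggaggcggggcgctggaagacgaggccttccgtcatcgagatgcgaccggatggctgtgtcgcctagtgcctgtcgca
Ubn2, chr6:38433677-38433907, plus strand: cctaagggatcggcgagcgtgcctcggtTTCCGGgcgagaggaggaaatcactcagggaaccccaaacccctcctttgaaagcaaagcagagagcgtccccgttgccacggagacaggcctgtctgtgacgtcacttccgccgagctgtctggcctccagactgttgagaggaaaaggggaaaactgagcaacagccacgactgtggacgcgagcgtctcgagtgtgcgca

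Tpt1 encodes translationally controlled tumour protein, Polr2e a subunit of RNA polymerases, Got1 the cytosolic aspartate aminotransferase and Ubxn1 an adaptor of the p97 ATPase. These 4 promoters carry a κB-type or κB consensus match, and their peaks held 15.4, 12, 12.2 and 11.3 tags per 10 M. Sde2 carries an E-box and overlapping ETS letters under a peak of 7.77 tags. Ubn2, a ubinuclein gene, carries ETS letters under 8.30 tags. The 5 peaks other than that of Tpt1 overlapped a SIN3A peak of the control siRNA list, and the Tpt1 peak lay 10 bp from one. As these promoters were picked, that count is not a share of the set. Of all knockout-only peaks within 1 kb of a gene end, 37.6% overlapped that SIN3A list.

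The knockout-only peaks were weak peaks of the knockout list. The tag count of a peak is the number of reads assigned to it by the authors, scaled to a library of 10 M reads. It ranged from 3.18 to 37.4 in knockout-only peaks, with a median of 5.83, and reached 265 in the other peaks, with a median of 10.4. The median fold over input was 6.76 against 10.5. Of the 4041 strongest peaks, with at least 15.7 tags, 44 (1.09%) were knockout-only. Of the 4041 weakest, with at most 6.0 tags, 1575 (39.0%) were. Both the choice of members and these values rest on the same list, so the difference in strength is a description of what the rule selects and was given no test.

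**Figure D1:**
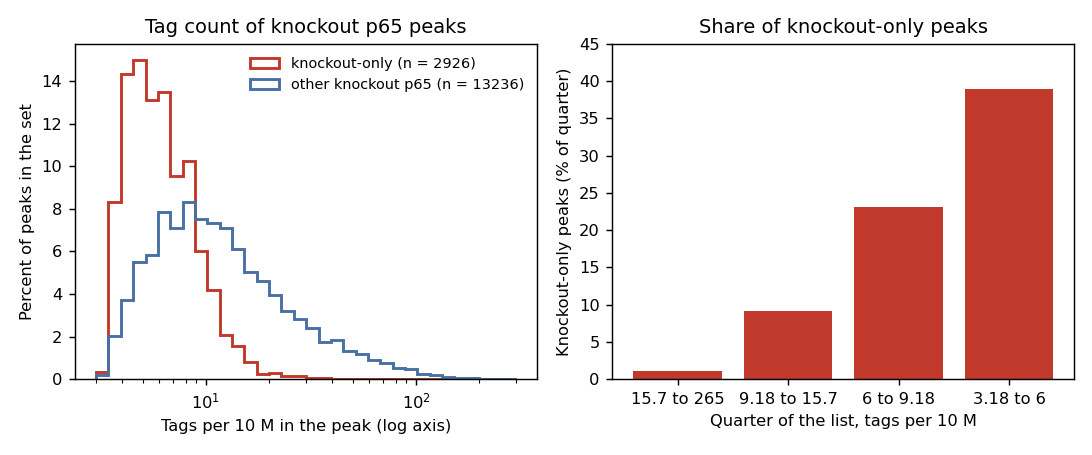
The left plot gives the distribution of tags per 10 M (log axis) in the 2926 knockout-only peaks and the 13236 other knockout p65 peaks, in percent of each set. The right plot gives the percent of knockout-only peaks in 4 equal parts of the knockout list ordered by tag count, which goes from 1.09% in the strongest part to 39.0% in the weakest.

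The nearest wild-type p65 peak lay at a median of 16919 bp from a knockout-only peak. For 548 of them (18.7%) it was more than 50 kb away, for 1416 (48.4%) it was 10 to 50 kb away, and for 86 (2.94%) it was between 500 and 1000 bp away. The 3 members nearest to the threshold were those at Hlx (503 bp, 12 tags), Lrrn2 (504 bp, 3.88 tags) and, with no gene within 50 kb, the peak 105262 bp from Sox4 (504 bp, 8.47 tags). The 3 peaks just outside the set were those at Asl (494 bp, 8.30 tags), Stk35 (497 bp, 6.36 tags) and Tet3 (497 bp, 6.0 tags). The median tag count was 6.53 between 500 and 1000 bp, 7.59 at 1 to 2 kb and 5.12 beyond 50 kb. None of the 2926 overlapped a p65 peak of knockout control cells, which allows a share of up to 0.103%. That list holds 173 peaks in all, and 0.884% of the other knockout peaks (0.724% of the whole knockout list) overlapped it. The rule had already removed peaks close to a wild-type control p65 peak, and its part in this absence was not tested.

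Knockout-only peaks lay at gene ends more often than the other knockout p65 peaks. A gene end here is either boundary of a protein-coding gene body, and 643 of the 2926 (22.0%, 95% interval 20.5 to 23.5) had one within 1 kb, against 1764 of 13236 (13.3%). Over the whole knockout list the share was 14.9%. The difference of 8.65 percentage points had a 95% interval of 7.07 to 10.3, and within equal parts of the list by tag count it was 10.6 points (8.93 to 12.3). Among the 4 parts, the strongest went the other way, with 4 of 44 knockout-only peaks (9.09%, 3.59 to 21.2) against 15.5% of the others. In the weakest it was 20.8% against 9.98%. These and all later intervals cover counting error only, since peaks are not replicates and each group has 1 list.

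Most of the peaks near a gene end were at its start. Where the start could be read, 484 of the 643 lay by the start and 45 by the far end, so that 91.5% were at starts, against 86.6% of the other knockout p65 peaks. The side was not known for 114. They lay close, at a median gap of 63.0 bp from the gene end against 179 bp for the others. Of 2819 knockout-only peaks on chromosomes of the start table, 285 (10.1%, 9.05 to 11.3) had their centre between 250 bases before and 50 after a start, against 517 of 12708 others (4.07%, 3.74 to 4.43). The share per 100 bp was highest just before the start, at 4.43% against 1.61%.

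**Figure D2:**
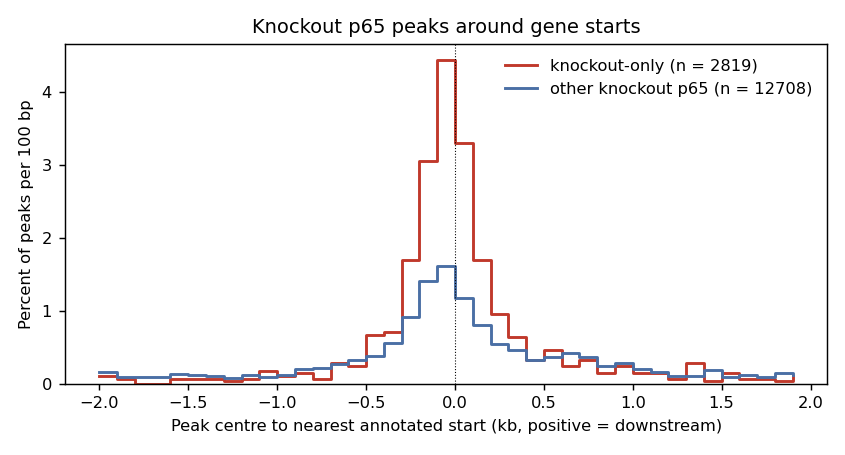
Percent of peaks per 100 bp by the distance from the peak centre to the nearest annotated gene start, in kb, with positive values downstream. Both sets have their highest point in the 100 bp before the start, at 4.43% for knockout-only peaks and 1.61% for other knockout p65 peaks.

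Away from gene ends, knockout-only peaks were spread much as the other peaks were. Inside genes beyond 1 kb from an end lay 1195 (40.8%), against 44.3% of the others. A further 593 (20.3% against 23.3%) lay outside genes but within 50 kb of one, and 495 (16.9% against 19.1%, and 18.7% of the whole list) had no protein-coding gene within 50 kb. Among peaks beyond 1 kb alone, the share inside a gene was 52.3% against 51.1%, a difference of 1.27 points with an interval of -0.974 to 3.51 (51.3% in the whole list). The median tag count of the 4 kinds of location ranged from 5.47 to 6.0 in knockout-only peaks.

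At gene ends, knockout-only peaks overlapped SIN3A more often than the other knockout p65 peaks did. With the SIN3A list from wild-type cells given control siRNA, 242 of 643 (37.6%, 34.0 to 41.4) shared at least 1 bp with a SIN3A peak, against 503 of 1764 others (28.5%). The share over all knockout p65 peaks near gene ends was 31.0%. The difference was 9.12 points (4.87 to 13.4), and it was 9.38 (4.37 to 14.4) within equal parts by tag count. When a SIN3A peak within 500 bp counted, the shares were 73.7% and 59.9% (63.6% of all). As the knockout-only peaks also lay closer to the gene ends, at the median gaps given above, the part of that distance in the SIN3A overlap was not tested.

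The SIN3A peaks that they met near gene ends were of middling to high rank in their own list. Their median was 24.4 tags per 10 M, against 22.5 at other p65 peaks and 20.0 over the whole SIN3A list. With siRNA against Pdx1 the share near gene ends was again 242 of 643 (37.6%), against 27.9% of the others and 30.5% of all. Both SIN3A lists were met by 184 (28.6% against 19.1%, and 21.6% of all), so 58 peaks were met in each list alone. Both groups of SIN3A samples were wild-type, so SIN3A binding in knockout cells is not shown.

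Beyond 1 kb SIN3A was rarely met. The control siRNA list overlapped 138 of 2283 knockout-only peaks (6.04%, 5.14 to 7.10), against 3.98% of the others and 4.33% of all. This was a difference of 2.06 points (1.08 to 3.17), or 3.02 within parts by tag count. The SIN3A peaks there were weaker, at a median of 12.8 tags against 10.6 at other p65 peaks. With siRNA against Pdx1 the shares were 6.40% and 5.24% (5.43% of all).

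PDX1 was split the other way, rare at gene ends and common away from them. The PDX1 list of knockout cells with IL-1β, which shares its input with the knockout p65 list, overlapped 23 of the 643 knockout-only peaks near gene ends (3.58%, 2.40 to 5.31), against 4.93% of the others and 4.57% of all. That difference of -1.35 points had an interval of -2.98 to 0.605 and turned to 0.0950 (-1.83 to 2.02) within parts by tag count, so no direction is given for it. Beyond 1 kb it overlapped 640 of 2283 (28.0%, 26.2 to 29.9), against 24.4% of the others and 25.0% of all. There the difference was 3.67 points (1.70 to 5.70), and it was 8.54 (6.48 to 10.6) within parts by tag count.

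Beyond 1 kb, the PDX1 peaks met by knockout-only p65 peaks had lower median tag counts than those met by the others, by an amount that differed between lists. The medians were 14.4 against 17.7 tags per 10 M in knockout cells with IL-1β, 20.2 against 23.6 in knockout control cells, 17.4 against 21.8 in wild-type control cells and 20.4 against 21.7 in wild-type cells with IL-1β. Near gene ends, where 13 to 46 knockout-only peaks met each list, the medians were lower in the knockout lists (14.2 against 16.9 with IL-1β, 20.9 against 21.0 in control) and higher in the wild-type lists (23.3 against 16.3 with IL-1β, 15.2 against 13.6 in control).

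The other PDX1 lists gave different shares beyond 1 kb. In wild-type control cells 908 of 2283 knockout-only peaks (39.8%) lay on a PDX1 peak, against 29.9% of the others and 31.5% of all, a difference of 9.89 points (7.73 to 12.1). In knockout control cells it was 22.8% against 17.9% (18.7% of all). In wild-type cells with IL-1β the order was the reverse, with 36.8% against 42.0% (41.1% of all), a difference of -5.17 points (-7.32 to -2.98). Each wild-type PDX1 list shares its condition and its input with a wild-type p65 list whose absence defines the members. The part of this in the higher share with control cells and the lower share with IL-1β was not tested. The wild-type PDX1 lists hold 40028 and 38930 peaks of 207 and 226 bp, for control and IL-1β. The knockout lists hold 8339 and 8095 peaks of 472 and 418 bp. Shares of different lists are therefore set side by side and not compared.

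Between wild-type control and IL-1β cells, the PDX1 lists overlapped the 2 sets differently. Of the knockout-only peaks at all distances, 739 were met in both lists, 215 in the control list alone and 134 in the IL-1β list alone. Of the other knockout p65 peaks 3239 were met in both, 343 in the control list alone and 1765 in the IL-1β list alone. These lists met 28.1% and 36.4% of the whole knockout p65 list. The knockout control and IL-1β lists met 16.4% and 21.9% of it. In the knockout-only set 97 peaks were met in the control list alone and 227 in the IL-1β list alone, and in the others 285 and 1055. With 1 list per condition no test between conditions was possible. By the rule, the other knockout p65 peaks are those with a wild-type p65 peak close by. The wild-type PDX1 lists share their conditions and inputs with the wild-type p65 lists, and the part of this in the wild-type counts was not tested.

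**Figure D3:**
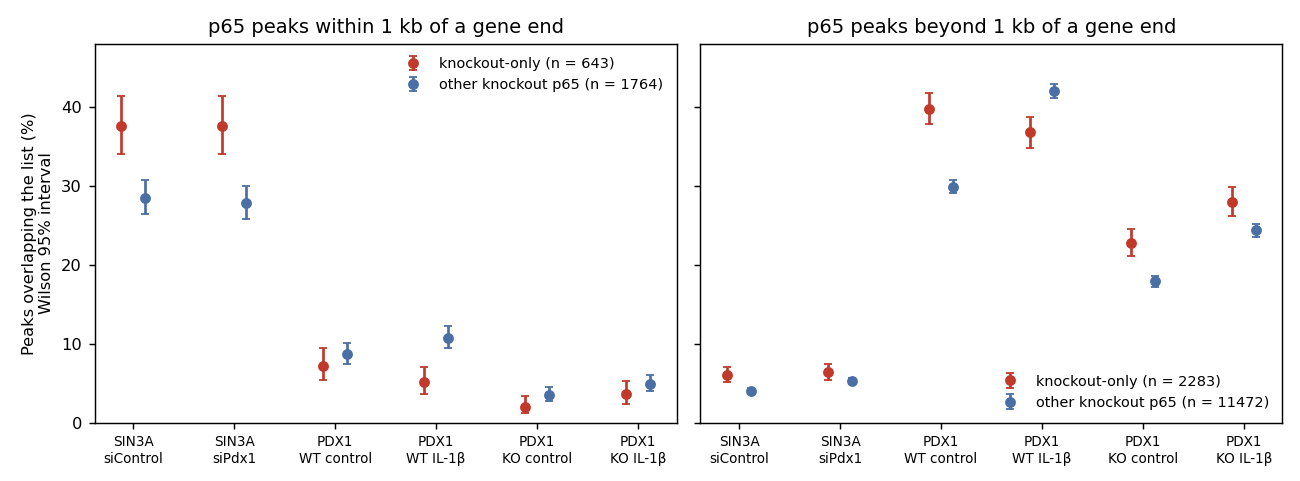
Percent of p65 peaks that overlap each SIN3A or PDX1 list by at least 1 bp, with Wilson 95% intervals, for peaks within 1 kb of a gene end (left) and beyond (right). Near gene ends the knockout-only points for SIN3A, at 37.6% in both lists, stand above those of the other p65 peaks (28.5% and 27.9%). Beyond 1 kb the knockout-only point for PDX1 of wild-type control cells is at 39.8%, against 29.9% of the others. The lists differ in number and size of peaks, so points are compared within a list only.

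Only 38 knockout-only peaks overlapped both SIN3A with control siRNA and PDX1 of knockout cells with IL-1β, and all 38 lay beyond 1 kb (0 of 643 near gene ends, which allows up to 0.467%, where 0.332% of all had both). This was 1.30% of the set, against 1.38% of the other peaks and 1.36% of all. The 6 with the highest scores lay at Fam151a, Rell1, Gse1, Unc79, Nin and Mtcl1, with 13.4 to 22.2 p65 tags. All 6 were PDX1 peaks in each of the 4 PDX1 lists, at 21.9 tags or more. The peak at Fam151a had 46.1 and 31.3 PDX1 tags in knockout control and IL-1β cells, and 69.5 and 82.9 in wild-type control and IL-1β cells. At the other end, 1369 knockout-only peaks (46.8%) overlapped no SIN3A and no PDX1 list, against 51.1% of the others and 50.3% of all.

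The promoter windows held fewer κB-type letters and more ETS letters than those of the other knockout p65 peaks. A window is the 300 bases from 250 before to 50 after a start. Of 21238 windows, 479 held at least 1 base of a knockout-only peak, 889 of another knockout p65 peak, and none of both. Letters were searched in all 300 bases, not only in those under the peak. The 479 windows carry 450 gene symbols and the 889 carry 815. A peak can thus count in several windows, which the intervals do not allow for. The κB-type letters stood on either strand in 46 of the 479 (9.60%, 7.28 to 12.6), in 21.1% of the 889 and in 5.76% of all windows. The difference was -11.5 points (-15.2 to -7.63), and -5.02 (-9.93 to -0.432) when only peaks of at most 9.18 tags were used, where the shares were 8.80% and 13.8%. The degenerate κB consensus, GGG, then a purine, any 2 bases, 2 pyrimidines and CC, was searched after these shares had been seen. It stood in 14.0% of the 479, 35.4% of the 889 and 9.25% of all windows, a difference of -21.4 points (-25.7 to -16.9), or -9.60 (-15.4 to -3.97) with the weaker peaks alone. The letters CCGGAA stood in 186 of the 479 (38.8%, 34.6 to 43.3), against 27.2% of the 889 and 18.7% of all. That difference was 11.6 points (6.39 to 16.9), and 10.8 (3.88 to 17.4) with the weaker peaks alone.

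Windows with a SIN3A peak of the control siRNA list and no knockout p65 peak at all, 4583 in number, held the κB-type letters in 4.60% and CCGGAA in 36.2%. Among the knockout-only windows, the 245 that also held a SIN3A peak had CCGGAA in 45.3% (39.2 to 51.6) and the 234 without one in 32.1% (26.4 to 38.3). Their κB-type shares were 8.16% and 11.1%. The E-box letters CACGTG, to which BMAL1 with CLOCK binds, stood in 11.5% of knockout-only windows, 11.8% of the other p65 windows and 7.84% of all. The AP-1 letters TGACTCA stood in 2.92%, 3.71% and 4.66%, the NF-Y letters CCAAT in 34.9%, 36.0% and 38.2%, and the homeodomain letters TAATTA in 2.30%, 2.36% and 4.54%. A κB-type match that ends in TTCC can share its last letters with an ETS match on the other strand. The median G+C content was 62.3% in both sets of p65 windows and 56.3% over all. The median ratio of observed CG pairs to those expected from base counts was 0.813 in knockout-only and 0.763 in other p65 windows. It was 0.834 in SIN3A windows without a knockout p65 peak and 0.567 over all. CCGGAA itself holds a CG pair, and the part of base composition in the shares was not tested. A match is only a run of letters, not evidence of a bound factor.

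**Figure D4:**
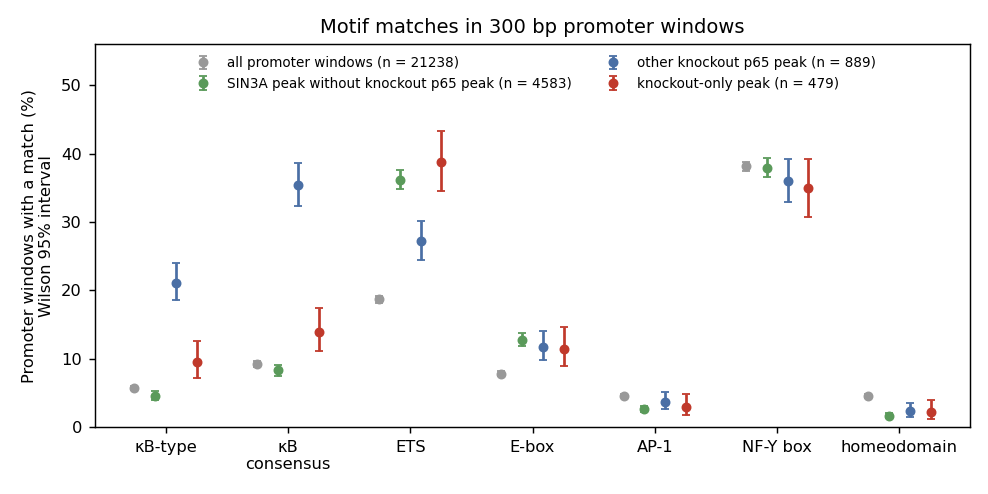
Percent of promoter windows of 300 bases that hold each run of letters on either strand, with Wilson 95% intervals, for all windows, windows with a SIN3A peak and no knockout p65 peak, windows with another knockout p65 peak and windows with a knockout-only peak. For the κB-type letters and the κB consensus the knockout-only windows (9.60% and 14.0%) stand below the other p65 windows (21.1% and 35.4%), and for the ETS letters (38.8%) above them (27.2%).

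Among the 12 highest-scored peaks beyond 1 kb, several lay a few kb from a strong wild-type p65 peak. The peak with the highest score lay in Etv6, which encodes an ETS-family repressor, at chr6:134220257-134220487, with 37.4 tags and 39.8-fold over input. The nearest wild-type IL-1β peak was 12170 bp away and had 222 tags. Pdcd1lg2, the gene of the PD-1 ligand PD-L2, had a peak of 26.7 tags at 1832 bp from a wild-type peak of 324 tags. Prkar2b, a regulatory subunit gene of protein kinase A, had 26.7 tags at 2776 bp from 211 tags, and Lrp8, a reelin and apolipoprotein E receptor gene, had 28.8 tags at 2925 bp from 143 tags. The peak in Ptprn2, whose product is a membrane protein of secretory granules, had 30.2 tags and lay 516 bp from a wild-type peak of 80.7 tags, just past the limit of the rule. None of these 5 overlapped a SIN3A or PDX1 peak.

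One of the strongest members lay within Arntl, the gene that encodes BMAL1 and is knocked out in these cells. This peak, at chr7:113284923-113285153, had 29.0 tags and 11.6-fold over input, inside the gene and 28973 bp from its far end. Its input held 8 tags, against a median of 3 over the members. The nearest wild-type IL-1β p65 peak was 33610 bp away with 5.98 tags, and no SIN3A or PDX1 peak overlapped it. Whether the engineered change of this locus bears on the peak was not tested.

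A peak inside Deptor, which encodes an inhibitor of mTOR, had 36.7 tags and 58.6-fold over input. It overlapped PDX1 peaks in knockout cells, with 12.5 tags in control and 13.5 with IL-1β, and none in either wild-type PDX1 list. It also overlapped a SIN3A peak of 49.8 tags with siRNA against Pdx1, while no SIN3A peak of the control siRNA list overlapped it. The peak near Poll, the DNA polymerase λ gene, had 23.1 tags with PDX1 peaks of 18.9 and 16.6 tags in knockout control and IL-1β cells and 9.64 in wild-type control cells. The remaining 4 of the 12 lay at B4galt5, Niban1, Fam151a and Gse1, with 22.2 to 25.8 tags.

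The 12 highest-scored peaks within 1 kb of a gene end had 12.7 to 30.7 tags. The strongest lay 826 bp inside the far end of Gfap, which encodes an astrocyte filament protein, with 30.7 tags, and a wild-type peak of 301 tags lay 3127 bp away. Tubb5, a β-tubulin gene, had 23.7 tags at 5.80-fold over an input of 13 tags, the highest input count of any member. Jun, the AP-1 subunit gene, had 15.5 tags at 989 bp before its start, with the nearest wild-type peak at 8998 bp. The peak on the start of Fkbp9, the gene of a prolyl isomerase, had 14.8 tags and overlapped a SIN3A peak of 12.2 tags. That on the start of Nme1, a nucleoside diphosphate kinase gene, had 12.7 tags and overlapped a SIN3A peak of 74.6 tags in the siRNA list against Pdx1. In the control siRNA list the nearest SIN3A peak lay 24 bp from it. The rest of the 12 lay at Ppp1r12b, Tpt1, Mettl7a3, Hes3, Rbm39, Cyp7b1 and B230219D22Rik. Of the 12, PDX1 peaks overlapped those at Ppp1r12b and Hes3. The PDX1 peaks at Ppp1r12b had 18.2 tags in knockout cells with IL-1β, 17.4 in wild-type control cells and 31.1 in wild-type cells with IL-1β. The PDX1 peak at Hes3 had 20.1 tags in wild-type control cells.

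When each peak was given to the nearest protein-coding gene within 50 kb, 2080 genes had a knockout-only peak, which is 9.50% of the 21887 genes. Another knockout p65 peak was assigned to 28.0% of all genes. Of the 2080, 1153 (55.4%) also had another knockout p65 peak and 1497 (72.0%) had a wild-type IL-1β p65 peak, against 45.4% of all genes. In neither wild-type p65 list did 572 (27.5%) have a peak, against 53.6% of all genes. There were 1809 genes with 1 knockout-only peak, 213 with 2 and 58 with 3 or more. Cdh4, a cadherin gene, and Frmd4a, a scaffold gene, had 8 each, and Dab1, an adaptor gene of reelin signalling, had 5. The tags of the peaks at Cdh4 ranged from 4.06 to 12.4 and those at Frmd4a from 4.06 to 11.7, beside 5 and 7 other knockout p65 peaks.

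The NF-κB and IL-1 receptor lists stood about at the 9.50% of all genes for knockout-only peaks, while their shares with another knockout p65 peak were above the 28.0% of all genes. Of 32 NF-κB target and feedback genes, 3 had one (9.38%), while 27 (84.4%) had another knockout p65 peak. The 3 were Tnip1, an inhibitor of NF-κB signalling, Traf2, an adaptor of TNF receptors, and Stat5a, with 7.24, 6.36 and 5.65 tags. Of 19 cytokine and chemokine genes none had one, while 12 had another knockout p65 peak. Of 23 genes of IL-1 receptor and IκB kinase signalling, 2 had one (8.70%) and 11 another knockout p65 peak. At Il1r1, the receptor of IL-1β, there were 3 peaks with 17.7, 12 and 7.06 tags, none of which met SIN3A or PDX1. The first lay within the gene, 1073 bp from a wild-type IL-1β peak of 12 tags. Ikbkb, which encodes the kinase IKKβ, had a peak of 5.12 tags.

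Both β-cell lists stood above the shares of all genes, for knockout-only peaks and for the other knockout p65 peaks alike. Of 30 insulin and secretion genes 9 (30.0%) had a knockout-only peak, and 18 another knockout p65 peak. Pcsk2, the gene of a prohormone convertase, had peaks of 11.7 and 6.36 tags, Scg2 and Chga, granin genes, had 10.2 and 10.1 tags, and Cacna1c, a calcium channel gene, had 9.0 and 5.83 tags. The Chga peak overlapped PDX1 only in the wild-type lists, with 32.2 tags in control and 28.8 with IL-1β. The other 5 genes were Chgb, Kcnj11, Slc30a8, Snap25 and Syt7, with 4.41 to 8.65 tags. The peak given to Slc30a8 lay 16832 bp outside the gene.

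Among 22 genes of β-cell transcription factors, 6 (27.3%) carried a knockout-only peak and 17 another knockout p65 peak. The Glis3 peak had 9.89 p65 tags and overlapped SIN3A, with 11.9 tags, and all 4 PDX1 lists, with 19.4 to 28.8 tags. The Rfx6 peak had 6.18 p65 tags and also overlapped all 4 PDX1 lists, with 17.1 tags in knockout cells with IL-1β and 53.3 in wild-type cells with IL-1β. The Neurod1 peak, 89 bp before the start with 6.71 tags, lay 18 bp from a SIN3A peak. Rfx3, Foxa2 and Gata6 had 6.18, 5.83 and 3.88 tags, and the peak given to Foxa2 lay 12493 bp outside the gene.

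Of 23 core clock genes, 4 had a knockout-only peak (17.4%) and 10 (43.5%) another knockout p65 peak. Over all genes the shares were 9.50% and 28.0%. Beside Arntl the 4 included Clock, with 10.2 tags, and the nuclear receptor gene Rora, with 7.59 tags. The Clock peak lay on a PDX1 peak in all 4 lists, with 16.7 tags in knockout cells with IL-1β and 25.9 in wild-type cells with IL-1β. Of 15 immediate early genes 5 (33.3%) had a knockout-only peak and 11 (73.3%) another knockout p65 peak. The 5 were Jun, described above, Nr4a1, with 11.8 tags, Klf4, with 5.83, Myc, with 5.65, and Fosb, with 5.12 tags on a SIN3A peak of 16.1 tags. The peaks given to Nr4a1, Klf4, Myc and Fosb lay outside those genes, by 7186, 15536, 27100 and 9690 bp.

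Of 34 proteasome subunit genes 2 (5.88%) had a knockout-only peak, Psma1 and Psmd12, and 8 (23.5%) another knockout p65 peak. Over all genes the shares were 9.50% and 28.0%. The Psmd12 peak lay 20691 bp outside the gene. Of 32 respiratory chain genes 2 (6.25%) had a knockout-only peak, Ndufs1 and Ndufs7, and 7 (21.9%) another knockout p65 peak. Of 30 RNA polymerase II and splicing genes 3 (10.0%) had a knockout-only peak, Polr2e, U2af2 and Prpf19, and 5 (16.7%) another. Ndufs1 and U2af2 had 10.8 and 9.18 tags. Of 30 cell cycle and DNA repair genes, 4 had a knockout-only peak (13.3%) and 12 (40.0%) another knockout p65 peak. Ccne2 had 10.4 tags, and the inhibitor genes Cdkn1b, Cdkn2a and Cdkn1a had 6.71, 6.71 and 5.65 tags. The Cdkn1b peak lay at the gene start on SIN3A peaks of 45.7 and 43.5 tags with control and Pdx1 siRNA.

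The remaining lists had 1 or 2 genes each with a knockout-only peak, to be read beside the 9.50% of all genes. Of 16 stress and apoptosis genes 2 (12.5%) had a knockout-only peak and 10 another knockout p65 peak. The 2 were Atf3 with 6.71 and Atf6 with 5.47 tags, both on SIN3A peaks, of 29.6 and 26.4 tags. The peak given to Atf3 lay 41050 bp outside that gene, and that of Atf6 inside its gene, 742 bp from an end. Of 16 SIN3 and HDAC complex genes 1 (6.25%) had a knockout-only peak, Rbbp7, with 6.0 tags, and 7 had another knockout p65 peak. Of 16 neuronal genes 1 (6.25%) had a knockout-only peak and 11 another knockout p65 peak. It was Celf4, with 4 knockout-only peaks of 4.06 to 11.3 tags. Of 20 marker genes of other lineages 2 (10.0%) had a knockout-only peak and 7 another knockout p65 peak. The 2 were Gfap and Alb, the albumin gene, with 30.7 and 7.41 tags. The lists are short, no set test was made, and assignment to the nearest gene does not show which gene a peak acts on.

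**Figure D5:**
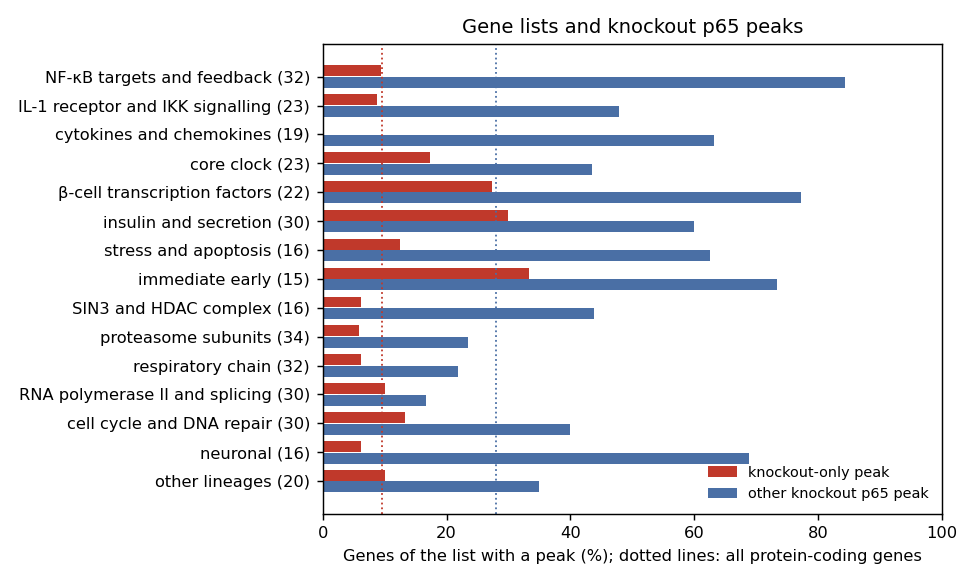
Percent of the genes of each list (number of genes in brackets) that have a knockout-only peak or another knockout p65 peak as nearest within 50 kb, with dotted lines at the shares over all protein-coding genes, 9.50% and 28.0%. The knockout-only bar is longest for immediate early genes (33.3%) and insulin and secretion genes (30.0%), and absent for cytokines and chemokines, and the other bar is longest for NF-κB targets (84.4%).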

How the data were processed

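The values are 10 peak lists deposited by the authors, 1 per group of immunoprecipitated samples. Per the file headers, HOMER findPeaks called each list from 1 tag collection against 1 input, at a false discovery rate of 0.001 and at least 4-fold over input and over the local 10 kb. The p65 lists rest on 53.5 to 61.9 M tags and the SIN3A lists on 31.0 and 35.0 M. Pooling of replicates is not mentioned in the headers. Peak signal means tags counted by the authors and scaled to a total of 10 M. Fold over input, as deposited by the authors, is a ratio of scaled tags, and the score is the authors' HOMER peak score, as deposited. The submitters' processing notes name Bowtie2, HOMER and mm10, without versions or roles. The p65 and PDX1 lists of a condition share an input, per the file headers.

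Gaps were measured between peak edges, and overlap needed 1 bp. Gene bodies were the 21887 protein-coding genes of RefSeq for GRCm38.p6, and starts and promoter windows came from the same release. The 15 gene lists hold 358 genes, all of which matched. Shares carry Wilson 95% intervals and differences of shares Newcombe 95% intervals, computed in Python 3.11.15 with pandas 2.3.3 and numpy 2.4.6. The gap rule, the Wilson interval and the motif search were tested on simulated data, and the intervals of differences were not. A difference within parts by tag count was averaged over 4 equal parts of the knockout list, weighted by their knockout-only peaks, with an interval from the binomial variances. Named peaks are the 12 with the highest score within and the 12 beyond 1 kb of a gene end, up to 4 genes a list by score, the genes with the most members, the 6 highest that overlap SIN3A and PDX1, and the 3 on each side of the threshold. Other genes of a list were named, and the promoters printed were picked, after their values had been seen. The members, the gene lists and the motifs were chosen with earlier results of these data known. No list holds values per replicate, so no replicate could be left out and no test between conditions was made. The values of 1 gene of the core clock list are not reported here.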

Additional observations from a re-analysis of the deposited data

How the results depend on the processing

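The number of knockout-only peaks ranged from 2733 to 3249 with windows of 0 to 2000 bp, was 3058 without the wild-type control list and 1088 at 8-fold or more over input. The share within the gene end distance was 18.3% at 500 bp and 25.8% at 2000 bp, 26.5% at 1 kb with all gene types, 23.6% for members at or above their median tag count and 19.2% at 8-fold or more. The SIN3A share near gene ends was 18.0% with centres within 100 bp, 19.9% with a reciprocal overlap of 50%, 73.7% with a gap of up to 500 bp, 42.5% for a gene end distance of 500 bp and 28.1% with SIN3A peaks of 8-fold or more. Beyond it, in the order of the same settings, it was 2.50%, 2.76%, 8.94% and, with SIN3A peaks of 8-fold or more, 3.59%. The PDX1 share near gene ends was 7.15% with the wild-type control list, 2.02% with the knockout control list and 5.84% for a gene end distance of 2000 bp. Beyond 1 kb it was 19.7% with centres within 100 bp, 21.1% with a reciprocal overlap of 50%, and 36.8%, 39.8% and 22.8% with the lists of wild-type IL-1β, wild-type control and knockout control cells. The difference in PDX1 near gene ends turned from -1.35 to 0.0950 points within parts by tag count. With peaks of at most 9.18 tags, the differences turned from -1.13 to 0.682 points for CCAAT and from -0.0658 to 0.573 for TAATTA, and the cause was not tested. Of 62 alternatives, 36 stayed within the interval or direction of the reported value. The comparison of the weaker peaks, the κB consensus and SIN3A within 500 bp were chosen after seeing the data. No paired analysis was possible because the lists hold no values per replicate. The calling threshold was 3.71 tags per 10 M in the knockout list and 3.55 in the wild-type IL-1β list. Knockout-only peaks had a median of 5.83 tags, with quartiles of 4.59 and 7.77. Depth and threshold limit what absence from a list shows, and their part in it was not tested.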

Other observations

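Knockout-only peaks lay about as far from the next peak of the knockout p65 list as the other peaks did, at a median of 29254 bp against 27722 bp. Grouping knockout-only peaks alone at gaps of up to 12.5 kb put 185 of 2926 (6.32%) into runs of 2 or more, the longest with 4 peaks. Grouped alone in the same way, 3234 of the 13236 other knockout p65 peaks (24.4%) were in runs, the longest with 7 peaks. That set is larger, and the part of set size in the 2 shares was not tested. The 500 kb with the most of them was chr2:179500001-180000000, which holds part of Cdh4, with 9 of the 14 knockout p65 peaks there. By chromosome, the knockout-only share of knockout p65 peaks went from 14.8% (12.5 to 17.4) on chromosome 8 to 21.2% (18.4 to 24.3) on chromosome 12, around 18.1% (17.5 to 18.7) in all. On the X chromosome it was 16.0% (12.9 to 19.7).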
